A study of Homo sapiens with 8 samples.

Results

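The genes described here lie in 15q15, a stretch of the long arm of human chromosome 15, and were listed because their RNA levels ran low after FOXA1 was knocked down in SKBR3 cells. The list holds 48 gene symbols, chosen by map position and by their fold changes between the same control and knockdown libraries used below, so the members' own values are given as a description and no test of them is offered. Of the 48 symbols, 47 were found in a table of 30434 genes; RHOV-AS1 had no row under that name. In GRCh38 with GENCODE 29 gene models the members run from KNL1, which starts at position 40594020, to WDR76, which ends at position 43868419, a span of 3274400 bases. LRRC57 had a second entry of 0 to 12 counts per library, and STRC, which encodes stereocilin of the inner ear hair cells, had 0 to 10 counts per library; both fell under the filter on low counts, which left 46 members with a fitted fold change.

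SKBR3 is a human breast cancer cell line that carries amplified ERBB2, the gene of the HER2 receptor, and FOXA1 is a forkhead transcription factor of luminal epithelium. Gene counts from 8 RNA-seq libraries were compared, 4 of SKBR3 control cells labelled as wild type and 4 of a stable SKBR3 derivative with FOXA1 knocked down by lentiviral shRNA; 3 individual hairpins were used to make it. The labels do not say which hairpin each library carries, whether the controls received a control vector, or how replicates were made, so p-values measure only the spread between these samples, which may be technical. The study asked how HER2-related pathways depend on FOXA1.

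A chromosome band is a map unit and not a pathway. Neighbouring genes on it need share no function, and their RNA levels can move together through shared promoters, a shared chromatin domain or the number of DNA copies of the band. The 15q15 members do work in several cell machines: kinetochores and the spindle, vesicle tethering at lysosomes and endosomes, chromatin remodelling and transcription elongation, and mitochondrial energy supply.

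FOXA1 itself had 4180, 4239, 4071 and 4397 counts in the control libraries and 89, 87, 83 and 92 in the knockdown libraries, which left 2.06% of the control level (log2 fold change -5.60, SE 0.063, edgeR quasi-likelihood adjusted p = 3.19e-30). The libraries held 19087878 to 23786684 counts. Of the 16430 genes tested, 77.1% were called at an adjusted p under 0.05, 37.7% lower and 39.4% higher in the knockdown. Luminal and HER2 markers summed to 18640 to 20755 CPM (counts relative to library size, scaled by the trimmed mean of M values) in control and 11609 to 12505 in knockdown; ERBB2, GRB7, KRT7 and KRT19 fell, while KRT8, KRT18 and EPCAM rose to 124%, 150% and 126% of control. Of markers of other cells, the fibroblast genes in the table summed to 5.27 to 6.98 CPM in control and 10.8 to 11.9 in knockdown, with COL1A2 at no more than 3 counts and DCN at no more than 1. COL3A1 rose from 0 to 1 counts to 90 to 104, and PDGFRB from 7 to 12 counts to 43 to 81, while COL1A1 fell (log2 fold change -0.31). Blood markers summed to 1.14 to 1.77 and 1.34 to 1.8 CPM, with PTPRC at no more than 3 counts and CD14 higher (1.51). Endothelial markers summed to 20.7 to 22.1 and 19.8 to 22.4 CPM, with PECAM1 at no more than 6 and KDR at no more than 7 counts; VWF fell from 105 to 130 counts to 12 to 22, and CDH5 rose (0.32). The part of these marker genes in the members' values was not tested.

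Most of the 46 members had lower counts after FOXA1 knockdown, while the median over all genes stayed near 0. ELL3, JMJD7, CHP1 and DNAJC17 were the lowest of the well-counted members, and MGA, MAPKBP1 and NUSAP1 were higher. The members' median log2 fold change (knockdown against control) was -0.51, with quartiles of -0.81 and -0.09, beside 0.02 (quartiles -0.50 and 0.53) for all 16430 genes tested. In all, 36 members had a negative and 10 a positive value. The edgeR fit called 33 members lower (37.7% of all genes were), 6 higher (39.4% of all genes) and 7 neither way, and nothing is read from these counts because the same contrast chose the members. In 32 members every knockdown library lay below every control library (35.0% of all genes), and in 6 every one lay above (36.9%).

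The difference was seen in each knockdown library. The median log2 ratio of the 46 members to the control mean was -0.53, -0.50, -0.50 and -0.44 in knockdown libraries 1 to 4, with 37, 37, 36 and 35 members below the control mean. In the 4 control libraries the same median lay between -0.03 and 0.02. The members' counts added up to 2735.9 ± 24.1 CPM in the controls, against 1849.5 ± 13.8 CPM after knockdown (SD, n = 4), so that 67.6% of the summed level was left. In bulk RNA, fewer cells that express a gene and less RNA per cell cannot be told apart. No DNA measurement was used here.

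Along the map the low values were not confined to 1 stretch. Cut into 4 runs of neighbouring members, the median log2 fold change was -0.40 over the 12 members from KNL1 to RTF1 and -0.47 over the 12 from ITPKA to ZNF106. It was -0.55 over the 11 from SNAP23 to ADAL and -0.56 over the 11 from ZSCAN29 to WDR76. Values below 0 made up 10 of 12, 8 of 12, 9 of 11 and 9 of 11 members of the 4 runs, in map order. Low values could stand beside values near or above 0: EXD1 (-0.12) and OIP5 (0.04) flank CHP1 (-2.11), and MGA (0.59) and MAPKBP1 (0.58) stand next to JMJD7 (-2.12). In GRCh38 coordinates of chromosome 15, CHP1 spans positions 41230839 to 41281890 on the plus strand and JMJD7 41828085 to 41837581 on the plus strand. The lowest member, ELL3, spans 43772600 to 43777543 on the minus strand, and MGA, the highest of the well-counted members, 41621224 to 41773081 on the plus strand.

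**Figure D1:**
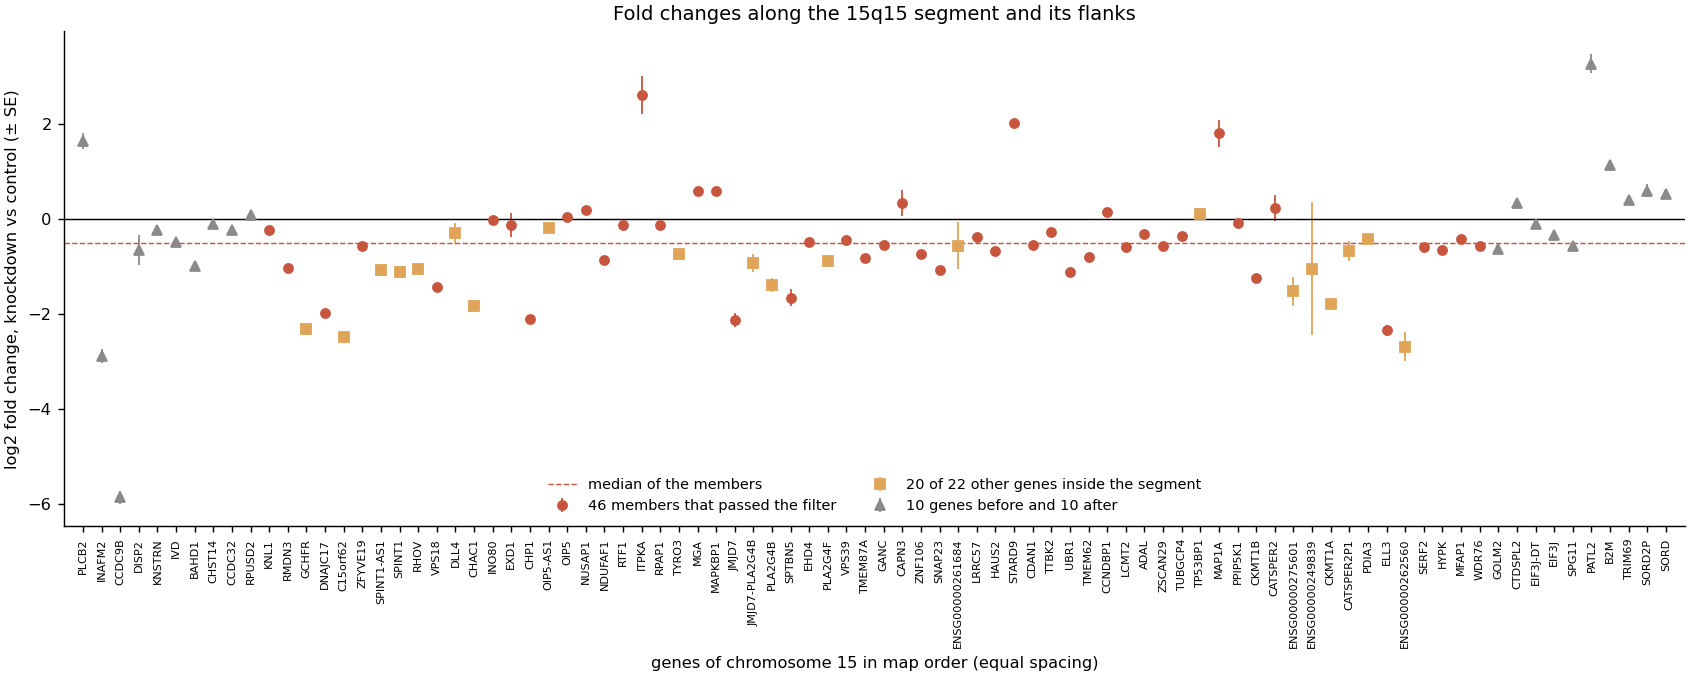
Log2 fold changes (knockdown against control, y axis, with SE) of chromosome 15 genes in map order at equal spacing (x axis): 46 members as circles, 20 of the 22 other tested genes inside the segment as squares and the 10 tested genes before and after it as triangles. Most circles lie below 0 around the dashed line at the members' median of -0.51, with single members far above or below it, and the genes after the segment lie mostly above 0.

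The segment also holds 55 genes that are not on the list, of which 22 passed the filter. These were lower still, with a median log2 fold change of -0.98 (quartiles -1.49 and -0.51), 17 called lower (37.7% of all genes), 1 higher (39.4% of all genes) and 4 neither way; the segment was itself chosen on this contrast. Of those with a mean of at least 50 counts, the lowest were C15orf62 (-2.48), GCHFR (-2.31), which encodes the feedback regulator of the tetrahydrobiopterin enzyme GTP cyclohydrolase, and CKMT1A (-1.78), a mitochondrial creatine kinase gene. Among the highest were OIP5-AS1 (-0.18) and TP53BP1 (0.11), a DNA double-strand break protein. GCHFR and C15orf62 share 2556 and 2370 bases with the member DNAJC17 (-1.98) on the opposite strand. With strand use not given, these 3 low values may rest partly on the same reads.

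The edges of the segment were read from the genes on either side. The first member, KNL1, stood at -0.24; just outside it, RPUSD2 at 0.09 and CCDC32 at -0.22 lay 19077 and 28963 bases away. The 10 tested genes before the segment had a median of -0.35, with 7 called lower (37.7% of all genes), 1 higher (39.4% of all genes) and 2 neither way. They ranged from CCDC9B at -5.85, lower than any member, to PLCB2 at 1.64. On the far side the last member, WDR76, stood at -0.57, and the nearest tested gene, GOLM2, lay 420310 bases away at -0.63; CTDSPL2, 558815 bases away, stood at 0.34. The 10 genes after the segment had a median of 0.37, with 3 called lower, 6 higher and 1 neither way. Over the 503 tested genes of chromosome 15 outside the segment the median was -0.21, with 243 called lower and 140 higher.

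The 8 tested members that serve chromosome segregation and microtubules had a median log2 fold change of -0.10, with 4 called lower (37.7% of all genes), 3 higher (39.4% of all genes) and 1 neither way. KNL1, the kinetochore scaffold that recruits the BUB checkpoint kinases, stood at 76.3, 71.5, 61.4 and 78.3 CPM in control and at 62.8, 64.3, 60.8 and 55.5 CPM in knockdown. Control library 3 lay inside the knockdown range, so the groups overlapped, and the log2 fold change was -0.24 (SE 0.0913). NUSAP1, a spindle protein that bundles microtubules near chromosomes, stood at 127, 133, 122 and 134 CPM in control and at 149, 148, 143 and 144 CPM in knockdown. All knockdown libraries of NUSAP1 were above all controls, by a small margin (log2 fold change 0.18, SE 0.0353). TUBGCP4, a subunit of the gamma-tubulin ring that nucleates microtubules, stood at 105, 110, 103 and 103 CPM in control and at 77.9, 83.6, 80.4 and 86.3 CPM in knockdown (log2 fold change -0.36, SE 0.0399), without overlap.

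HAUS2, a subunit of the augmin complex that branches spindle microtubules, went from 47.6 ± 1.09 to 29.7 ± 0.699 CPM (SD, n = 4), a log2 fold change of -0.68. OIP5, which loads the centromeric histone CENP-A as part of the Mis18 complex, kept to 21.2 ± 0.846 CPM in the controls and to 21.8 ± 0.783 CPM after knockdown, with overlap. TTBK2, a kinase that starts cilium assembly, stood at a log2 fold change of -0.27. STARD9, a mitotic kinesin, and MAP1A, a microtubule-associated protein of neurons, were the members with high values on few counts. STARD9 had 19, 16, 14 and 18 counts in control and 71, 76, 62 and 66 in knockdown (log2 fold change 2.01), and MAP1A had 2 to 5 and 11 to 16 (1.80). Beside this group, 16 mitotic genes from elsewhere in the genome, a list of proliferation markers, had a median log2 fold change of 0.55, with 1 called lower and 14 higher. They summed to 2486.7 to 2803.4 CPM in the controls and 3838.2 to 4027.9 CPM after knockdown, and its part in the values of the segregation genes was not tested.

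All 8 members of membrane traffic and organelle contact had lower counts in the knockdown, without overlap between the groups (35.0% of all genes were so), with a median log2 fold change of -0.92. RMDN3, which tethers mitochondria to the endoplasmic reticulum, stood at 70.9, 71.5, 71.6 and 69.6 CPM in control and at 33.4, 34.7, 36.8 and 34.5 CPM in knockdown. Its 4 knockdown libraries sat close together at 49.2% of the control mean (log2 fold change -1.03, SE 0.0309). TMEM87A, a membrane protein of the Golgi, stood at 96.1, 100, 91.9 and 96.7 CPM in control and at 54.7, 54.2, 55.4 and 54.3 CPM in knockdown (log2 fold change -0.82, SE 0.0271). EHD4, an ATPase that shapes recycling endosomes, stood at 78.4, 79.1, 85.8 and 75.1 CPM in control and at 53.9, 56.1, 56.9 and 60.6 CPM in knockdown (log2 fold change -0.48, SE 0.0533). In all of these genes the lowest control library was above the highest knockdown library.

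VPS18 and VPS39 are subunits of the tethers that bring late endosomes and lysosomes together; VPS18 is shared by the HOPS and CORVET tethers and VPS39 belongs to HOPS. VPS18 went from 54.9 ± 2.34 to 20.5 ± 0.332 CPM (log2 fold change -1.42), and VPS39 from 56.8 ± 0.857 to 41.6 ± 1.77 CPM (-0.45; SD, n = 4). SNAP23, the broadly expressed plasma membrane SNARE of exocytosis, went from 54.3 ± 3.07 to 25.9 ± 1.42 CPM (-1.07). ZFYVE19, a regulator of the final cut of cell division, stood at -0.57. It was placed in this group by choice and could also be counted with the genes of cell division. SPTBN5, a large beta-spectrin, had 43 to 58 counts in control and 11 to 23 in knockdown (-1.65).

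The 12 members of chromatin, transcription and RNA had a median log2 fold change of -0.48, with 9 called lower (37.7% of all genes), 1 higher (39.4% of all genes) and 2 neither way. ELL3, an elongation factor of RNA polymerase II and the lowest member of all, stood at 26.7, 27.7, 26.8 and 26.4 CPM in control and at 5.1, 5.69, 6.21 and 4.21 CPM in knockdown, 19.7% of the control level (log2 fold change -2.34, SE 0.121). ZNF106, a zinc finger protein that binds RNA, stood at 168, 181, 169 and 174 CPM in control and at 98.5, 109, 101 and 108 CPM in knockdown (log2 fold change -0.73, SE 0.0444). RTF1, of the PAF1 elongation complex, stood at 107, 106, 104 and 104 CPM in control and at 93.0, 100, 93.9 and 96.7 CPM in knockdown (log2 fold change -0.13, SE 0.0265). The groups of these 3 genes did not overlap, although the gap for RTF1 was narrow.

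MGA, a partner of MAX in a repressive Polycomb complex, went the other way. It stood at 60.4, 62.6, 55.7 and 64.1 CPM in control and at 86.2, 94.5, 96.8 and 88.5 CPM in knockdown (log2 fold change 0.59, SE 0.0591). MFAP1, a spliceosome protein, stood at 45.5, 46.7, 41.7 and 41.9 CPM in control and at 32.5, 33.2, 35.5 and 30.6 CPM in knockdown (log2 fold change -0.42, SE 0.0606). WDR76, a WD-repeat protein linked to DNA damage, stood at 39.4, 42.7, 39.1 and 38.8 CPM in control and at 26.6, 26.4, 25.6 and 29.3 CPM in knockdown (log2 fold change -0.57, SE 0.0532). Both of the latter genes, at the far end of the segment, were lower in every knockdown library than in any control.

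INO80, the ATPase of the nucleosome remodeller of that name, was level at 73.8 ± 0.98 and 73.3 ± 3.56 CPM (log2 fold change -0.01). DNAJC17, a J-domain protein that acts in splicing, went from 38.3 ± 1.8 to 9.72 ± 1.07 CPM (-1.98; SD, n = 4). The others of this group were CDAN1 (-0.55), whose product codanin is mutated in a congenital anaemia, ZSCAN29 (-0.56), a zinc finger protein, RPAP1 (-0.13, groups overlapping), an assembly factor of RNA polymerase II, and CCNDBP1 (0.14, groups overlapping), which binds D-type cyclins.

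The 9 members of metabolism, mitochondria and protein turnover had a median log2 fold change of -0.65, with 8 called lower (37.7% of all genes) and 1 neither way. CKMT1B, a mitochondrial creatine kinase gene, stood at 150, 144, 156 and 152 CPM in control and at 63.9, 62.9, 60.6 and 65.8 CPM in knockdown (log2 fold change -1.25, SE 0.0353). CKMT1A lies in the same band and encodes the same protein from a near-identical copy, so reads may have been split between them; summed, they went from 247 ± 5.86 to 91.4 ± 1.56 CPM (SD, n = 4), 37.0% of control. HYPK, a chaperone-like protein bound to the N-terminal acetyltransferase NatA, stood at 63.2, 60.1, 66.9 and 60.8 CPM in control and at 36.9, 42.1, 40.1 and 40.3 CPM in knockdown (log2 fold change -0.65, SE 0.0527). HYPK shares 6448 bases with SERF2 on the same strand, so its counts are uncertain.

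JMJD7, a Jumonji-domain hydroxylase, stood at 12.9, 11.8, 11.5 and 9.44 CPM in control and at 2.21, 2.38, 2.75 and 3.19 CPM in knockdown, 23.1% of control (log2 fold change -2.12, SE 0.15). It shares 9487 bases with the read-through gene JMJD7-PLA2G4B, which stood at -0.92, so how reads were split between them bears on both values. UBR1, the ubiquitin ligase that reads N-terminal degradation signals, went from 60.9 ± 4.77 to 28.1 ± 1.06 CPM (-1.12), and NDUFAF1, an assembly factor of respiratory complex I, from 25.9 ± 0.661 to 14.3 ± 1.37 CPM (-0.86; SD, n = 4). GANC, an alpha-glucosidase, stood at -0.54, LCMT2, which modifies a tRNA base, at -0.59 and ADAL, an adenosine deaminase-like enzyme, at -0.32. CAPN3, the calpain of skeletal muscle, had 8 to 14 counts in control and 9 to 16 in knockdown, overlapping.

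The 4 signalling members were the most unlike each other, from -2.11 to 2.61. CHP1, a calcium-binding protein that supports the sodium-proton exchanger NHE1, stood at 213, 224, 221 and 207 CPM in control and at 51.1, 49.1, 47.3 and 52.9 CPM in knockdown, 23.2% of control (log2 fold change -2.11, SE 0.044). MAPKBP1, a scaffold of JNK signalling, stood at 26.7, 27.4, 30.3 and 25.7 CPM in control and at 40.7, 41.1, 41.7 and 41.5 CPM in knockdown (log2 fold change 0.58, SE 0.0516). PPIP5K1, a kinase that makes inositol pyrophosphates, stood at 40.5, 41.3, 41.9 and 41.0 CPM in control and at 39.0, 40.0, 38.5 and 38.6 CPM in knockdown (log2 fold change -0.08, SE 0.0162). Its groups did not overlap, yet the difference was among the smallest of the members and was not called. The SE printed here comes from the log2 CPM of this gene alone and not from the edgeR fit that made the calls. ITPKA, an inositol trisphosphate kinase, had 3, 1, 4 and 3 counts in control and 17, 27, 15 and 12 in knockdown, so its fitted value of 2.61 (SE 0.405) rests on few reads.

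The remaining members are genes of hearing and germ cells or are little described; the 5 tested had a median of -0.37. SERF2, a small protein that promotes amyloid aggregation, stood at 461, 440, 489 and 436 CPM in control and at 315, 290, 317 and 303 CPM in knockdown (log2 fold change -0.58, SE 0.0477). TMEM62, a transmembrane protein, stood at 38.0, 41.1, 39.6 and 38.2 CPM in control and at 21.8, 23.3, 23.2 and 21.5 CPM in knockdown (log2 fold change -0.80, SE 0.0396). Both were lower in every knockdown library than in any control library. LRRC57, a leucine-rich repeat protein, stood at -0.37 on its main entry. EXD1, of the germ cell piRNA pathway, and CATSPER2, of the sperm calcium channel, had 20 to 55 and 21 to 47 counts per library with overlapping groups. STRC and CATSPER2 have near-identical copies, STRCP1 and CATSPER2P1, so their low counts are also uncertain.

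**Figure D2:**
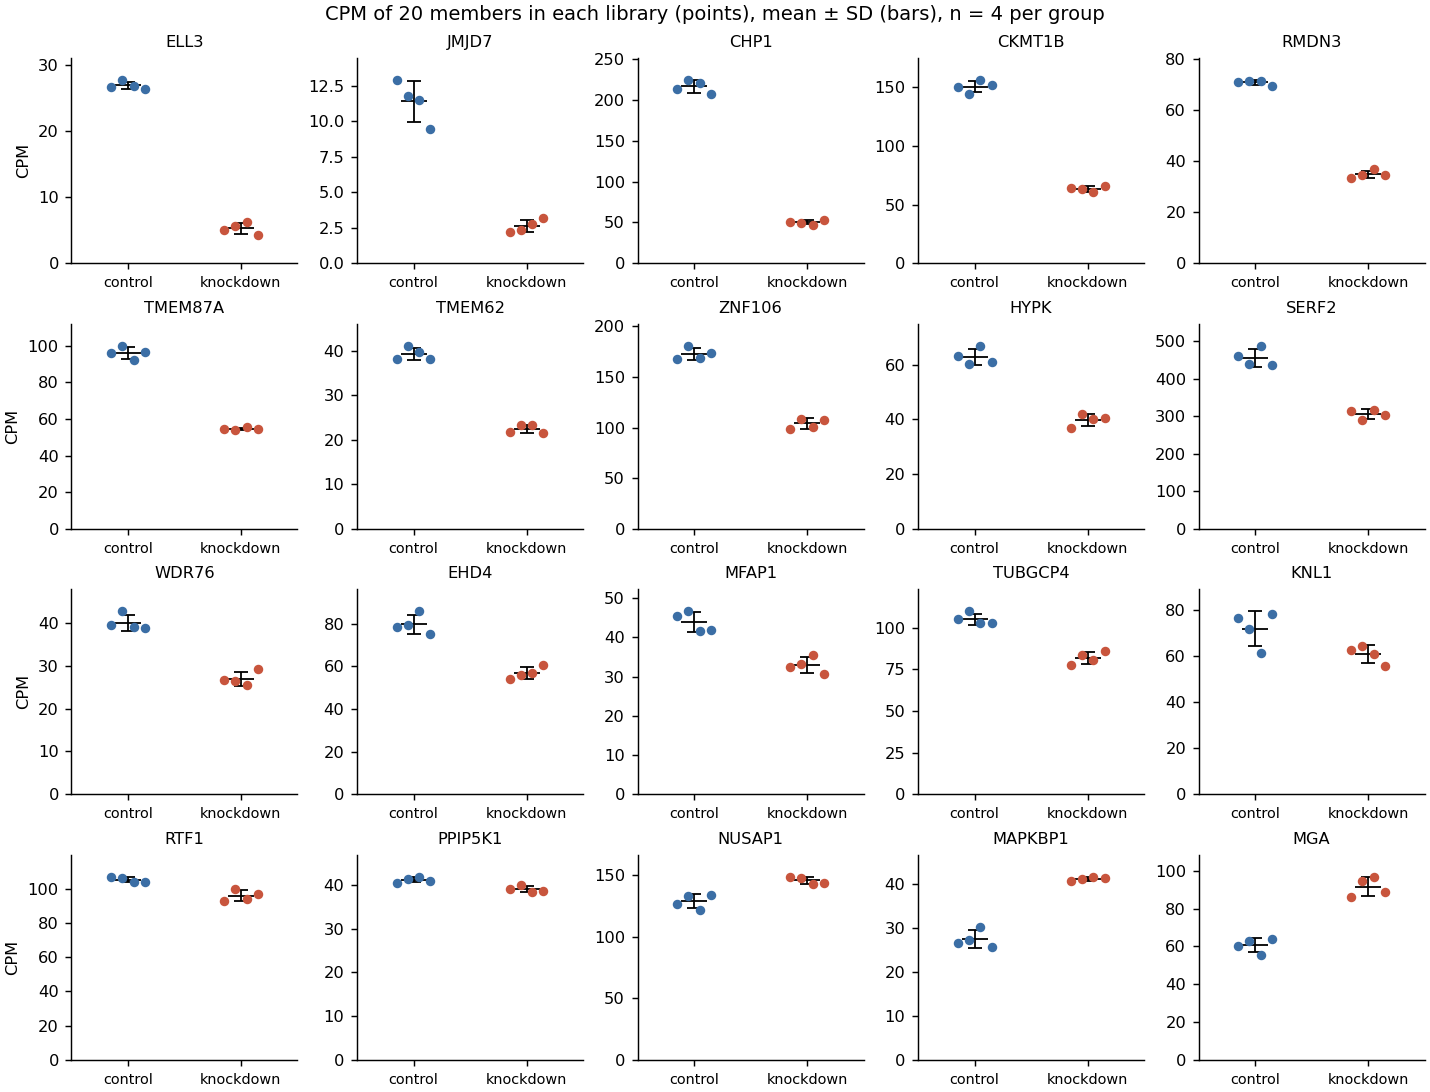
CPM (y axis, from 0) of 20 members in each of the 4 control and 4 knockdown libraries (points), with the mean and SD of each group (bars), ordered from the lowest to the highest log2 fold change. ELL3, JMJD7 and CHP1 had 19.7%, 23.1% and 23.2% of control, KNL1 overlapped between groups, and NUSAP1, MAPKBP1 and MGA were higher in the knockdown.

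Per length of exon, most members were expressed above the median gene, while some lay far below it, such as STARD9 and ITPKA at percentiles 3.84 and 5.17. In control, 31 of the 46 lay above the median of 13278 tested protein-coding genes in CPM per kilobase, and their median percentile was 60.5. SERF2 (62.1), CHP1 (54.6), NUSAP1 (44.8) and CKMT1B (43.4 CPM per kilobase) had the highest control levels, and MAP1A (0.016) had the lowest. The spread between libraries was as small as elsewhere: over the 39 members with a mean of at least 50 counts the median coefficient of variation was 4.48% in control and 4.85% in knockdown, beside 5.44% and 4.85% over all such genes.

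A feature that the choice of members did not use was how their start sites lie. In 8 pairs, which take in 16 members, the starts lay within 1000 bases of each other on opposite strands in GENCODE, and all 8 are called divergent here. DNAJC17 with ZFYVE19, TMEM87A with GANC and ELL3 with SERF2 overlapped at their starts, while the starts of the remaining pairs pointed away from each other. With RefSeq start sites, which were known for both genes of 7 of the pairs, ZNF106 and SNAP23 start 4493 bases apart and ELL3 and SERF2 15010 bases apart, so these 2 pairs share no promoter region by that annotation. Of the 46 members, 17 (37.0%) had a divergent protein-coding neighbour of this kind that was tested, beside 2034 of 13278 tested protein-coding genes (15.3%). The 2 genes of a pair differed in log2 fold change by a median of 0.33 (8 pairs, range 0.14 to 1.99), and members that neighbour each other in any other way by a median of 0.85 (37 neighbours, range 0.01 to 2.75). No count limit was set, and the largest of these 37 values involves ITPKA, with 1 to 4 counts per control library. STARD9 and MAP1A, also on few counts, enter the 37 too. The fold changes compared are those that chose the members, so nothing is read from the 2 medians.

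OIP5 and NUSAP1, with starts 73 bases apart in GENCODE and 290 in RefSeq, had the most similar log2 fold changes of any pair, at 0.04 and 0.18. TMEM87A and GANC (-0.82 and -0.54), ZNF106 and SNAP23 (-0.73 and -1.07), LRRC57 and HAUS2 (-0.37 and -0.68) and LCMT2 and ADAL (-0.59 and -0.32) were also each within 0.34 of each other. The other 3 pairs split widely. EXD1 and CHP1, 96 bases apart in GENCODE and 511 in RefSeq, stood at -0.12 and -2.11, a difference of 1.99 (SE 0.253). EXD1 had 20 to 55 counts per library. DNAJC17 and ZFYVE19 differed by 1.41 (SE 0.105), and ELL3 and SERF2 by 1.77 (SE 0.131). The gene bodies of the last 2 pairs, and of TMEM87A and GANC, overlap on opposite strands. Whether counting used the strand is not given in the sources used here, so reads in those overlaps cannot be assigned with certainty.

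**Figure D3:**
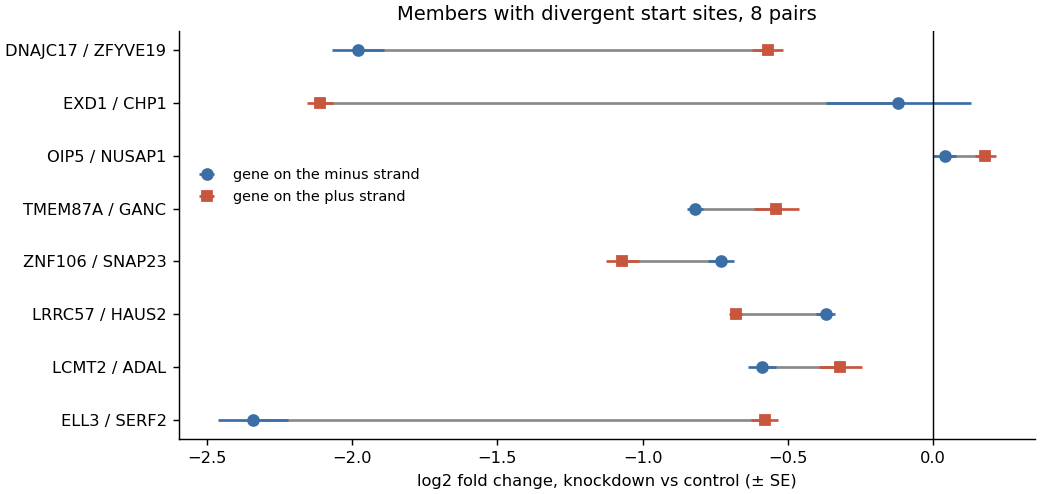
Log2 fold changes (x axis, with SE) of the 2 genes of each of 8 divergent pairs (rows), the minus-strand gene as a circle and the plus-strand gene as a square. In 5 pairs the symbols lie within 0.34 of each other; in DNAJC17 with ZFYVE19, EXD1 with CHP1 and ELL3 with SERF2 they lie 1.41, 1.99 and 1.77 apart.

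Promoter sequences from RefSeq (GRCh38.p14, 250 bases before to 50 after the start) were found for 40 of the 47 members, and not for KNL1, VPS18, RPAP1, CDAN1, ADAL, TUBGCP4 and WDR76. Their median GC content was 60.5%, beside 58.3% over 27305 promoters, and their median observed to expected CpG ratio was 0.813, beside 0.580. The 27305 promoters include those of genes not tested here, while nearly all members were tested, so the sets are unlike. The promoter regions of the pair with the most similar fold changes, of the pair that split most, of the pair with the closest starts and of the lowest member are shown up to 30 bases past the start, so that they can be read against these values. By RefSeq, EXD1 and CHP1 start 511 bases apart, so the CHP1 stretch covers only part of the region between them. It lies at higher positions than both GENCODE starts, 41230743 for EXD1 and 41230839 for CHP1. Capitals mark the letters CCAAT or its reverse complement ATTGG, a box bound by NF-Y and common in promoters of cell cycle genes, and TTTGAA, the cell cycle homology region. Stretches with no capitals hold none of these.
NUSAP1, chr15:41332631-41332910, plus strand, facing OIP5: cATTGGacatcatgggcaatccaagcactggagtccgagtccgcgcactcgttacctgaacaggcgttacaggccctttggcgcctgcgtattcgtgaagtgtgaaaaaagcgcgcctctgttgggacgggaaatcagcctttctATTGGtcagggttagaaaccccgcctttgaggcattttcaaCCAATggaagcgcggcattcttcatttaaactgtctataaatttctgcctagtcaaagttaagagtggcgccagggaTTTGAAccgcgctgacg
CHP1, chr15:41231018-41231297, plus strand, facing EXD1: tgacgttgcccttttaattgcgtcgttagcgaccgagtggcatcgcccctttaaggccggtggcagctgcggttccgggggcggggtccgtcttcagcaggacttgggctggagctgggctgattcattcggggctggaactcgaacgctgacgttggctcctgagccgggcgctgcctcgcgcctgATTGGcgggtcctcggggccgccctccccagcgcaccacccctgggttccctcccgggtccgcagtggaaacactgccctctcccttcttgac
HAUS2, chr15:42548764-42548867, plus strand, across the 45 bases between the RefSeq starts of LRRC57 and HAUS2: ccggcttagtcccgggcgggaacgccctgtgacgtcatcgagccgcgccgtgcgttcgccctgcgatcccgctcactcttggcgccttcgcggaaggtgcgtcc
ELL3, chr15:43776937-43777216, minus strand: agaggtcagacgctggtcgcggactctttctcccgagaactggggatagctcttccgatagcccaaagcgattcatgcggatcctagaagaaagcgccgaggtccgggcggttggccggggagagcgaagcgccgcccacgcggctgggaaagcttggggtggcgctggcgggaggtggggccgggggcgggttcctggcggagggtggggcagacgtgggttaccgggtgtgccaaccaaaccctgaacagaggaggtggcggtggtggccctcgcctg

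The NUSAP1 stretch holds 3 CCAAT boxes on either strand, at 249, 105 and 64 bases before the RefSeq start, and TTTGAA just after it. The CHP1 stretch holds 1 ATTGG, 63 bases before the RefSeq start. By GENCODE, NUSAP1 starts at 41332694, so its boxes at 105 and 64 lie inside the gene. The whole ELL3 stretch also lies inside the gene by GENCODE, where ELL3 starts at 43777543. In the full 300-base windows, CCAAT on either strand was found in 16 of 40 members (40.0%) and in 35.7% of all promoters, and TTTGAA on either strand in 4 of 40 (10.0%) and in 15.4% of all. The forkhead letters searched were TGTTTAC, the form with a different end, TGTTTGC, and the form of each that begins differently, which is TATTTAC for the first and TATTTGC for the second. On either strand they were found in 1 of 40 members (2.5%) and in 12.2% of all promoters. Because all promoters include those of genes not tested here, none of these shares compares like sets. By GENCODE, TMEM87A starts at 42273663, so the 1 match, in TMEM87A, lies inside the gene there. It lies 88 bases before the RefSeq start, is shown with 11 bases on each side and in capitals, and reads TGTTTGC on the other strand.
TMEM87A, chr15:42273504-42273532, minus strand: tacgccgcacaGCAAACAagctccgcgac
A match is only a run of letters, and distal regions, where FOXA1 often binds, were not searched.

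The partners of the members in named complexes are encoded outside the segment and took no part in choosing it. The partner lists were drawn up with earlier results of these data known, so their calls are not an independent test. Of 86 listed partner names, of which WDR61 and SKIC8 are 1 gene, 84 genes were tested, SNAP25 being under the filter: 26 were called lower (37.7% of all genes were) and 42 higher (39.4% of all genes), and 16 were called neither way. Their median log2 fold change was 0.12 (quartiles -0.20 and 0.37), beside 0.02 for all genes. Each list below is described by its counts, with adjusted p-values from the edgeR quasi-likelihood fit over all genes.

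Most partners of the kinetochore and spindle members were higher. The 16 mitotic genes from elsewhere in the genome were so too, with a median of 0.55 and 14 called higher (39.4% of all genes). The part of this wider rise in the partners' values was not tested. Of 11 genes of the KNL1, MIS12 and NDC80 network and its checkpoint readers, 9 were called higher and 1 lower, with a median log2 fold change of 0.43, where KNL1 stood at -0.24. BUB1, the checkpoint kinase that KNL1 recruits, went from 71.2 ± 2.42 to 120 ± 1.19 CPM (SD, n = 4), a log2 fold change of 0.75 (edgeR adjusted p = 2.05e-15), and NDC80 stood at 0.67. All 4 partners of OIP5 in loading CENP-A were called higher (median 0.52), led by CENPA at 0.70 (edgeR adjusted p = 3.92e-12), where OIP5 stood at 0.04. Of the 7 other augmin subunits 4 were called higher and 1 lower, with a median of 0.57 where HAUS2 stood at -0.68. HAUS8 went from 12.2 ± 0.689 to 24.2 ± 1.34 CPM (SD, n = 4; log2 fold change 0.99, edgeR adjusted p = 3.62e-13), while HAUS4 was the 1 that fell (-0.75). Of 9 gamma-tubulin ring genes, 3 were called higher and 2 lower (median -0.03), led by MZT2B at 0.46 (edgeR adjusted p = 1.85e-06), where TUBGCP4 stood at -0.36.

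The partners of the traffic members were mixed. Of 6 other subunits of HOPS and CORVET, 4 were called lower and the other 2, VPS33A (0.02) and TGFBRAP1 (-0.08), neither way, with a median of -0.28; VPS18 stood at -1.42 and VPS39 at -0.45. VPS8, which is specific to CORVET, fell from 57.7 ± 1.52 to 30.6 ± 2.03 CPM (SD, n = 4), a log2 fold change of -0.91 (edgeR adjusted p = 1.04e-14), and VPS11 stood at -0.60. Of the 3 paralogues of EHD4, EHD2, which sits at caveolae, was lowest at -2.06 (edgeR adjusted p = 1.4e-17), EHD1 stood at -0.90 and EHD3 at 0.74. Of 4 tested SNARE partners and paralogues of SNAP23, 2 were called higher and 1 lower, STX4 at -0.30 (edgeR adjusted p = 8.73e-05), where SNAP23 stood at -1.07.

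The partners of the chromatin and transcription members also moved both ways. Of 13 other INO80 complex genes 7 were called higher and 5 lower (median 0.11), led by the AAA+ ATPase RUVBL1 at 0.86 (edgeR adjusted p = 6.8e-17), where INO80 stood at -0.01. Of 9 genes of the Polycomb complex that holds MGA, 5 were called higher and 3 lower (median 0.15), led by the ubiquitin ligase RNF2 at 0.84 (edgeR adjusted p = 1.43e-11), beside 0.59 for MGA. Of 5 other PAF1 complex genes 4 were called lower and 1 higher (median -0.27), led by CDC73 at -0.40 (edgeR adjusted p = 2.92e-07), beside -0.13 for RTF1. LEO1 (-0.27) and WDR61 (-0.31), both called lower, also lie on chromosome 15, where the tested genes outside the segment had a median of -0.21. Of 4 RNA polymerase II assembly factors 3 were called higher (median 0.18), led by RPAP3 at 0.62 (edgeR adjusted p = 0.0063), where RPAP1 stood at -0.13. Of the 3 NatA genes that HYPK joins 2 were called higher and 1 lower, the subunit NAA15 at -0.21 (edgeR adjusted p = 0.000263), where HYPK stood at -0.65. Of 6 complex I assembly partners of NDUFAF1 2 were called lower and 1 higher (median 0.02), led by TMEM126B at -0.67 (edgeR adjusted p = 5.14e-09), where NDUFAF1 stood at -0.86.

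**Figure D4:**
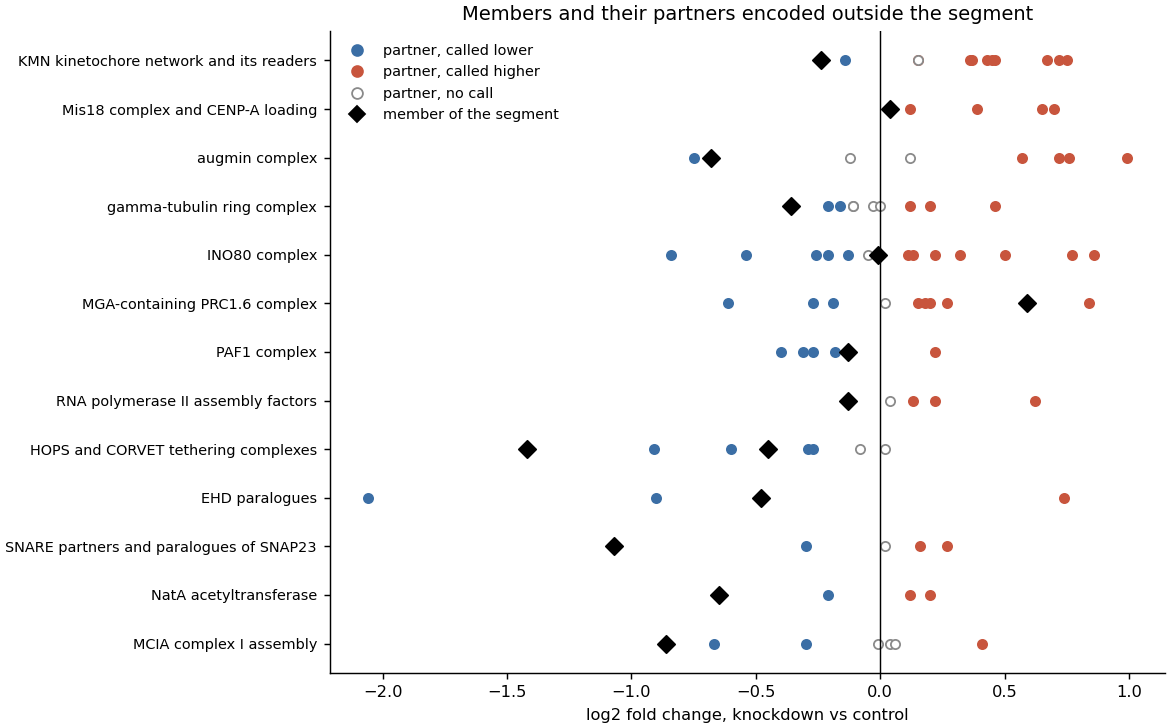
Log2 fold changes (x axis) of members (diamonds) and of their tested partners outside the segment (circles, filled where called at an adjusted p under 0.05) for 13 lists (rows). HAUS2 (-0.68) lies left of most of its partners, MGA (0.59) lies right of most of its own, and KNL1 (-0.24), VPS18 (-1.42), SNAP23 (-1.07), HYPK (-0.65) and NDUFAF1 (-0.86) lie left of every partner tested in their lists.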

How the data were processed

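RNA of 4 control and 4 FOXA1 knockdown samples of SKBR3 cells was sequenced in paired 101-base reads, per the labels' protocols. The authors deposited whole-number counts per gene. FastQC, Salmon 1.9, DESeq2 3.16 and the build hg38 are named, with no role, in the submitters' processing notes; how whole counts were made and whether strand was used are not given in the sources used here. Reads shared by copies or overlapping genes could be split either way.

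Genes were tested with edgeR 4.0.16 in R 4.3.3 (filterByExpr with a minimum count of 10, trimmed mean of M values, robust quasi-likelihood fit, Benjamini-Hochberg adjustment over 16430 genes, threshold 0.05). The biological coefficient of variation was 4.56%. CPM uses the same scaling. Each SE was taken from the variance of the log2 CPM of that gene within each group, with 0.5 counts added. It is not the precision of the edgeR fit, which shares information between genes. The SE of a difference between 2 genes combines their SE values. Positions came from GENCODE 29 for 96.5% of rows, and promoters from RefSeq. The members, partner lists and marker lists were chosen with earlier results of these data known. Values of every library are printed for the first 2 and last 2 members, the 3 lowest and 3 highest with a mean of at least 50 counts, and the 2 with most CPM in control per role; in each partner list the called gene that changed most is named, and NDC80, HAUS4, VPS11, EHD1 and EHD3 were added after their values were seen. The 3 lowest and the highest of the other genes inside the segment are named, except items not reported here. DNAJC17, named with the lowest members, is the fourth. Libraries of 1 group differed by more than counting noise, so none was merged. The fit was tested on simulated counts. Alternatives were other scalings, filters and tools, a replicate block and leaving out each library.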

Additional observations from a re-analysis of the deposited data

Results flagged for a closer look

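In each group of 4 libraries, the gap between the most extreme library and its nearest neighbour was divided by the whole range of the group (Dixon's ratio, critical value 0.829). Of 92 groups of member values 4 passed, where chance gives about 1 in 20. RPAP1 was high in control library 3, at 40.7 CPM beside 36.4 to 37.0 in the others (ratio 0.852). CAPN3 was high in control library 2, at 0.636 CPM beside 0.38 to 0.412 (ratio 0.874), on 14 counts. HAUS2 was high in knockdown library 4, at 30.8 CPM beside 29.3 to 29.4 (ratio 0.945), a gap far smaller than its difference from control. WDR76 was high in control library 2, at 42.7 CPM beside 38.8 to 39.4 (ratio 0.836). Control library 2 stood out for 2 of the 4 genes, and the other two genes each had a different library.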

How the results depend on the processing

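The members' median log2 fold change of -0.51 lay between -0.54 and -0.48 when each library was left out in turn, and the partners' median of 0.12 between 0.10 and 0.12. The members called lower numbered 32 to 33 and those without overlap 32 to 33. The partners called lower numbered 24 to 27 and those called higher 39 to 42, and all genes called 12498 to 12865. Upper-quartile scaling gave medians of -0.45 for members and 0.18 for partners, library size alone -0.43 and 0.20, and a filter at a mean of 50 counts gave -0.55 for the 39 members left. The median of all genes is 0.103 with library size alone. Over the other scalings, filters and tools, members called lower numbered 29 to 33, partners called lower 20 to 26, partners called higher 36 to 47 and genes called 10279 to 15028. The count without overlap lay between 28 and 32; the tools, the block and the stricter threshold of 0.01 do not enter it. Of genes that were not called, INO80 (up to 0.08, under 4 of the settings), PPIP5K1 (0.01, with library size alone) and EXD1 (0.03, without knockdown library 3) changed sign. With library size alone KNL1 (-0.16), RTF1 (-0.05), RPAP1 (-0.05) and TTBK2 (-0.19) were no longer called, and CCNDBP1 (0.23) was called higher. Upper-quartile scaling ended the calls of RTF1 (-0.07), RPAP1 (-0.07) and TTBK2 (-0.21), and DESeq2 those of RPAP1 and TTBK2. Without control library 3, or knockdown library 3 or 4, RPAP1 (-0.13 to -0.09) was not called, and without knockdown library 1 neither was TTBK2 (-0.19). CCNDBP1 was also called higher with upper-quartile scaling (0.20), with no filter (0.14), with a filter at a mean of 50 counts (0.16) and without control library 2 or 4 or knockdown library 2 (0.16 to 0.20). TP53BP1 (0.09 to 0.10) was not called without control library 1 or 4 or knockdown library 3. Of 1115 single-gene values over 66 genes, 1093 moved by less than the spread between replicates.

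Whether replicate numbers pair the samples cannot be told from these values. The correlation of same-numbered deviations was small, at 0.0877, 0.168, -0.0355 and 0.0661, yet 6 of 8 libraries correlated best with their own number. With the replicate number as a block, 12453 genes were called, 33 members and 25 partners were lower, 42 partners were higher, and the medians were -0.51 and 0.12.

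Precision is lowest for ITPKA, MAP1A, CAPN3 and STRC, with at most 27 counts in any library. Overlapping genes, near-identical copies and unstated strand use limit the values of JMJD7, HYPK, ELL3, DNAJC17, CKMT1B and CATSPER2. In all, 17 tested members overlap a tested gene, among them also SERF2, SNAP23, LRRC57 and TUBGCP4. ELL3 shares 4927 bases on the same strand with a protein-coding gene that stood at -2.68 on a mean of 16.9 counts. No DNA copy number was used here.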
